A study of Mus musculus with 6 samples.

Results

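Rab, sorting nexin (Snx) and Vps genes encode machinery that moves membrane between the compartments of a cell, and their RNA was followed in colonies grown from adult mouse pancreatic cells. The members were every gene of the deposited table whose symbol was Rab or Vps followed by a number, with or without a single letter after it, or Snx followed by a number. The symbol alone decided which genes were members, but the choice of these families was made with earlier results of these data known. There were 103 such genes among the 11164 of the table, of which 46 were Rab, 27 were Snx and 30 were Vps genes. Per the labels, a first group of 2 libraries, shGlis3, was transduced with a lentiviral mix of 5 shRNA clones to Glis3, which encodes a Krüppel-like transcription factor. A second group of 2, shCD133, received such a mix of 5 to CD133, the membrane glycoprotein encoded by Prom1. The 2 shControl libraries carried a single shRNA with no mammalian target, so both knockdowns also differ from control in being a mix of clones. All groups came from C57Bl/6 mice aged 2 to 4 months, whose pancreatic cells were sorted for high CD133 and low CD71, and all were selected with puromycin. All were cultured for 3 weeks as primary colonies in methylcellulose and Matrigel in a medium of serum, conditioned medium and the additions RSPO1, nicotinamide, exendin-4 and activin B. Whether the 2 libraries of a group derive from different mice or different cultures is not stated in the labels, and p-values therefore reflect the spread between these libraries alone.

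Rab proteins are small GTPases that mark membranes and, when loaded with GTP, recruit the motors and tethers that carry and dock vesicles. Sorting nexins bind phosphoinositides on endosomes through a PX domain, and several of them shape recycling tubules. Vps proteins were first found in yeast mutants that missort vacuolar proteins, and they form complexes such as retromer, HOPS, ESCRT and GARP. In polarised duct epithelium this machinery delivers and retrieves apical and basolateral membrane proteins.

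The libraries were of similar size. Steps between low values fitted best at a depth of 25.8 to 29.2 megareads. RPKM (reads scaled to transcript length and to the library total) summed to 267688 to 279122 per library. Glis3 had 13.31 and 11.96 RPKM in shGlis3 colonies, against 26.05 and 24.22 in shControl colonies, and Prom1 had 88.03 and 96.00 RPKM in shCD133 colonies, against 191.25 and 203.42 in shControl colonies. Of 12 duct markers, 11 were in the table, and their summed level ranged from 7837.6 to 9184.7 RPKM in shGlis3, 7876.1 to 8182.2 in shCD133 and 9852.5 to 10445.1 in shControl. Spp1 made up the largest part of that sum and Prom1 is itself a knockdown target, and the other 9 markers summed to 3468.1 to 3752.0 RPKM in shGlis3, 3884.6 to 4660.7 in shCD133 and 3171.2 to 3508.7 in shControl. Of the 11, 0 were called in shGlis3 by limma (median log2 fold change 0.07), while in shCD133 Krt19, Krt8, Sox9 and Cdh1 rose and Spp1 and Prom1 fell (median 0.20). Of 10 acinar markers, only Cela1 had a row, at 1.06 RPKM or less in every library. Of 8 endocrine markers, 4 had a row, and their sum ranged from 6.0 to 12.2 RPKM in shGlis3, 0.9 to 2.6 in shCD133 and 3.5 to 9.7 in shControl. Of 7 leukocyte markers, Cd68 had a row, at 5.73 to 6.33 RPKM in shGlis3, 5.12 to 6.39 in shCD133 and 5.23 to 5.83 in shControl. None of 8 mesenchymal, 5 endothelial and 4 Schwann markers had a row in the table, whose lowest row maximum was 1.00 RPKM, so they are not analysed here. The part of cell composition in the results was not tested, and in bulk colonies fewer cells of a type and less RNA per cell cannot be told apart.

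The members held a similar share of the measured RNA in every library. The members summed to 2117 and 2071 RPKM in shGlis3, 2124 and 2102 in shCD133 and 2016 and 2106 in shControl. That was 0.771% and 0.774% of all RPKM in shGlis3, 0.792% and 0.78% in shCD133 and 0.748% and 0.755% in shControl. In shControl colonies the median member stood at 11.5 RPKM, against 9.16 RPKM over all genes of the table. By family the control medians were 14.6 RPKM for Rab, 12 RPKM for Snx and 11.2 RPKM for Vps genes, and 13 of the 14 members at 50 RPKM or more were Rab genes.

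**Figure D1:**
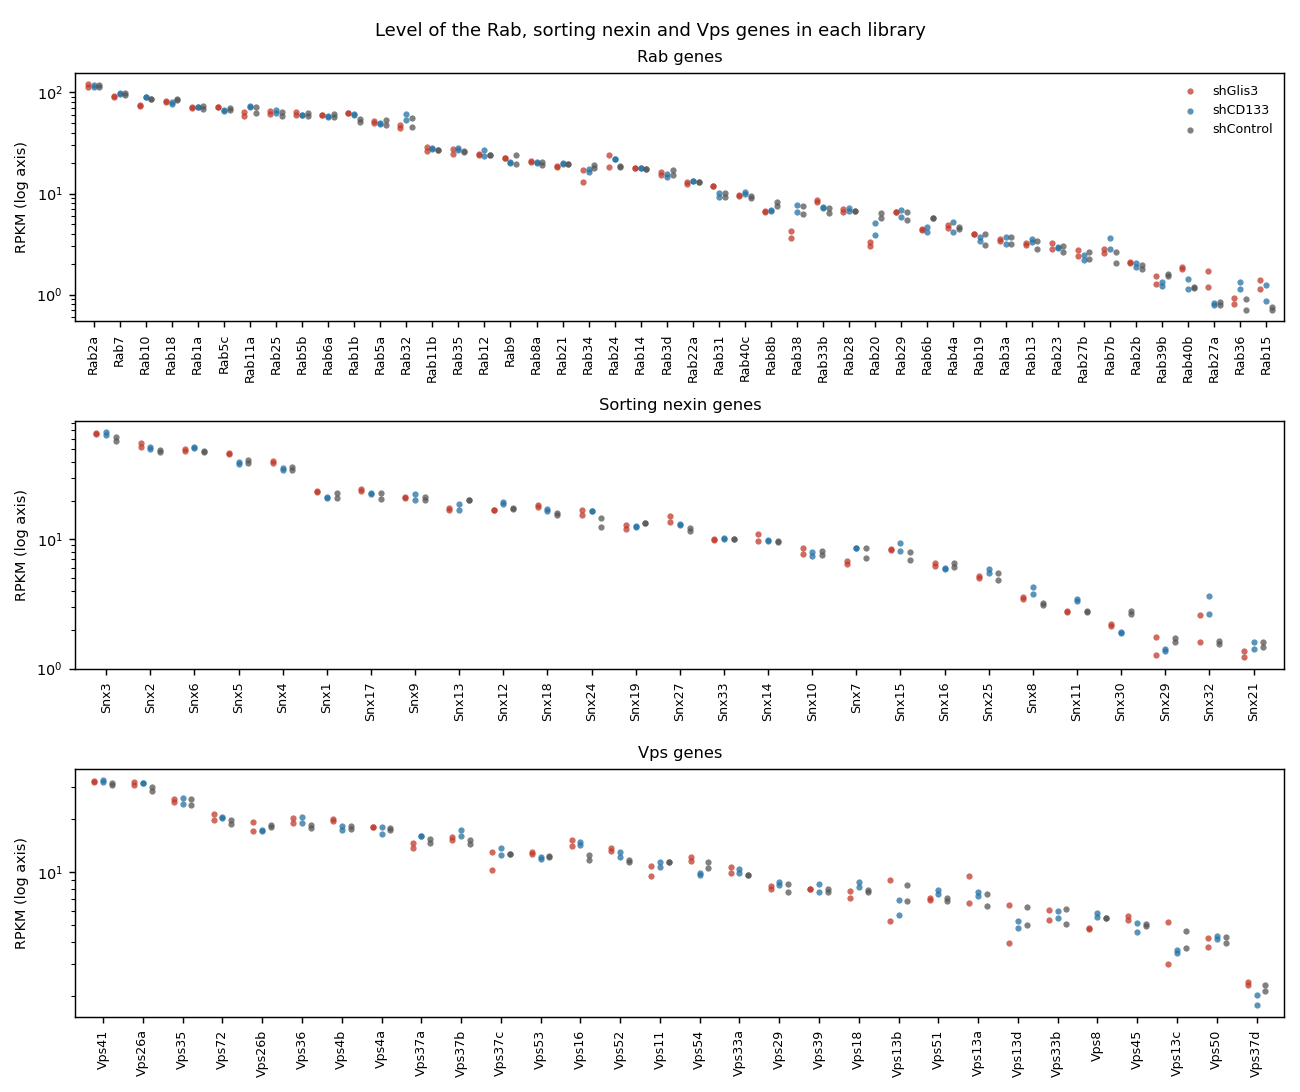
RPKM of each member in each of the 6 libraries (dots, log axis), with genes of each family ordered from high to low by their mean in shControl; from left to right within a gene are shGlis3, shCD133 and shControl. Rab2a heads the Rab genes, Snx3 the sorting nexins and Vps41 the Vps genes, and for most genes the 6 dots lie close together.

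Rab proteins of the early secretory pathway and of endosomes led the order of levels. Rab2a, which acts between the endoplasmic reticulum and the Golgi, had 113.72 and 117.77 RPKM in shControl colonies, above every other member. Rab7, the late endosome and lysosome Rab, followed with 93.52 and 98.08 RPKM. Rab10 (basolateral and recycling traffic) had 86.78 and 85.84 RPKM and Rab18 (lipid droplets and the endoplasmic reticulum) 83.68 and 87.12 RPKM, and these ranges overlapped, so their order is not resolved. Rab1a, the endoplasmic reticulum to Golgi Rab, had 68.72 and 72.98 RPKM, Rab5c, an early endosome Rab, 66.79 and 70.59 RPKM, and Rab11a of the recycling endosome 63.37 and 71.47 RPKM. Those 3 overlapped as well. Rab25, a relative of Rab11 that is restricted to epithelia, had 58.02 and 63.76 RPKM. At the low end, Rab15 had 0.75 and 0.71 RPKM, Rab36 had 0.91 and 0.71, Rab27a had 0.79 and 0.85, and Rab40b had 1.17 and 1.19 RPKM.

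Within groups of close paralogs the balance between copies differed from family to family. Rab5a, Rab5b and Rab5c shared the Rab5 signal almost evenly in shControl, with 28.3%, 33.5% and 38.2% of their summed RPKM. Rab6a held 91.2% of the Rab6 signal, and Rab3d, the Rab3 copy known from zymogen granules of exocrine cells, held 82.6% against 17.4% for Rab3a. Rab8a held 71.5% and Rab8b 28.5%. Of the Rab11 subfamily, Rab11a held 43.5%, Rab25 39.3% and Rab11b 17.3%. Retromer used both Vps26 copies, with 61.9% from Vps26a and 38.1% from Vps26b. Vps4a and Vps4b, the ATPases that take ESCRT-III apart, stood at 49.6% and 50.4%, and of the Vps33 copies Vps33a (HOPS and CORVET) held 63.1%. Snx2 held 68.8% against 31.2% for Snx1, while Snx6, Snx5 and Snx32 held 53.4%, 44.9% and 1.77%. Of the ESCRT-I subunit Vps37, copies a, b and c held 33.5%, 33.2% and 28.3% and Vps37d 4.92%. Reads of close paralogs can be misassigned, and the sources used here do not say how shared reads were counted.

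Promoter sequences, which the symbol rule did not use, were searched for 3 short motifs. The CLEAR element, whose letters are the capitals in the windows printed here, is a palindrome known as a binding site of TFEB and related factors in promoters of lysosomal genes. RefSeq promoter windows (GRCm38.p6, from 250 bases before to 50 after the first listed start) could be matched for 79 members, and on either strand 6 of them (7.59%) held this element. Among the 8788 genes of the whole table with such a window it was present in 76 (0.865%), and among all 27025 windows in 97 (0.359%). The shorter E-box CACGTG, which every CLEAR element contains, was present in 12 of the 79 members (15.2%), against 10.7% of the genes of the table. The core TGGGGGGT, within the sequence that Glis proteins bind, was searched on both strands and was present in none of the 79 members' windows and in 1.27% of those of the table. These are counts of letters, with no test. The 6 windows are shown because they carry this element, in capitals, with 25 bases on each side on the strand of the gene.
Vps16 (chr2:130424275-130424334, plus strand): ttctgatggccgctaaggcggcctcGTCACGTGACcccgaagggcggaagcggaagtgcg
Vps33a (chr5:123572995-123573054, minus strand): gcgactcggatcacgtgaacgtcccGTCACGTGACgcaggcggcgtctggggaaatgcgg
Vps26a (chr10:62486955-62487014, minus strand): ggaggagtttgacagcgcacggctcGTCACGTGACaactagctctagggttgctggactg
Rab21 (chr10:115315589-115315648, minus strand): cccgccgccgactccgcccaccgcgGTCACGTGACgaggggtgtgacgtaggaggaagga
Rab24 (chr13:55321946-55322005, minus strand): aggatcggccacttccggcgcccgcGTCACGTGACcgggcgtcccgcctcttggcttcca
Rab5a (chr17:53479112-53479171, plus strand): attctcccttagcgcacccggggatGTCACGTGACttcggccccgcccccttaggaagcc

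The element lay close to the start of transcription in most of these genes. Its first base was 20 bases before the start in Vps16, at position -14 in Vps33a, at -32 in Rab21, at the start itself in Rab24, at -97 in Rab5a and at -184 in Vps26a. Vps16 and Vps33a encode partner subunits of the HOPS and CORVET tethers, which dock late and early endosomes. Vps26a is a retromer subunit, Rab21 and Rab5a act at early endosomes, and Rab24 is linked to autophagy. Of the 6, Vps16 alone was called in a comparison below. In shGlis3 against shControl the log2 fold changes of the others were 0.08 for Vps33a, 0.10 for Vps26a, -0.08 for Rab21, 0.18 for Rab24 and 0.00 for Rab5a.

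The comparison of shGlis3 with shControl colonies asked which members differ in level when Glis3 is knocked down. A limma model on log2(RPKM + 1) tested 102 of the 103 members, Rab36 falling below the minimum mean of 1 RPKM, with p-values adjusted by Benjamini-Hochberg over all 10829 genes tested and a call at an adjusted p under 0.05. Rab20, Rab38, Rab6b and Rab10 fell, and Rab40b, Rab33b, Rab31, Vps16, Snx27 and Rab1b rose, while 92 members did not pass. The 10 calls were 9.8% of the members, against 12.9% of all genes tested. The 6 rises were 5.88% of the members against 8.39% of all genes, and the 4 falls 3.92% against 4.53%. The members' median log2 fold change was 0.03, beside 0.04 for all genes, and 2 members (1.96%) moved by more than 0.5 on the log2 scale, against 6.17% of all genes. Both shGlis3 libraries lay beyond both shControl libraries for 52 members (51%), against 59.6% of all genes. They lay above for 32 members (31.4%, against 38.5% of all genes) and below for 20 (19.6%, against 21.1%). All these shares of members were below those of all genes tested, a difference that was not tested. The split of calls depended on scaling: with every library centred on its median, which set the median log2 fold change of all genes at -0.01 instead of 0.04, 0 members rose and 6 (5.88%) fell. In that setting 5.32% of all genes rose and 6.57% fell, so the split of all genes turned as well. In both comparisons with control, leaving out 1 shControl library lost most calls over all genes, so such a loss is not particular to a member.

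In the CD133 knockdown fewer members were called by this model. Snx30 and Rab6b fell, 0 rose by limma, and 100 did not pass, so that 1.96% of the members were called, against 11.8% of all genes tested. Of all genes 8.16% rose and 3.64% fell. At an unadjusted p under 0.05 there were 16 members (15.7%), against 31.1% of all genes. The median log2 fold change was 0.04, equal to that of all genes, and 94 members (92.2%) stayed within 0.25 on the log2 scale, against 79.2% of all genes. Both shCD133 libraries lay beyond both shControl libraries for 53 members (52%), against 62.4% of all genes, above for 36 (35.3%, against 40.3%) and below for 17 (16.7%, against 22.1%). Between the knockdowns, Rab38 and Rab10 were lower in shGlis3 than in shCD133 and 0 members were higher by limma. That was 1.96% of the members, against 4.06% of all genes, of which 1.61% were higher and 2.46% lower in shGlis3, while 21 (20.6%) had an unadjusted p under 0.05, against 21.9%. The shGlis3 libraries lay beyond both shCD133 libraries for 53 members (52%), against 54.7% of all genes, above for 28 (27.5%, against 27.9%) and below for 25 (24.5%, against 26.8%). The comparisons with control share the 2 shControl libraries. With only the 2 groups compared, more members were called in shCD133 (3 higher and 2 lower) than in shGlis3 (0 and 3). In that setting 10.7% of all genes rose and 4.67% fell in shCD133, and 5.92% and 3.45% in shGlis3.

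**Figure D2:**
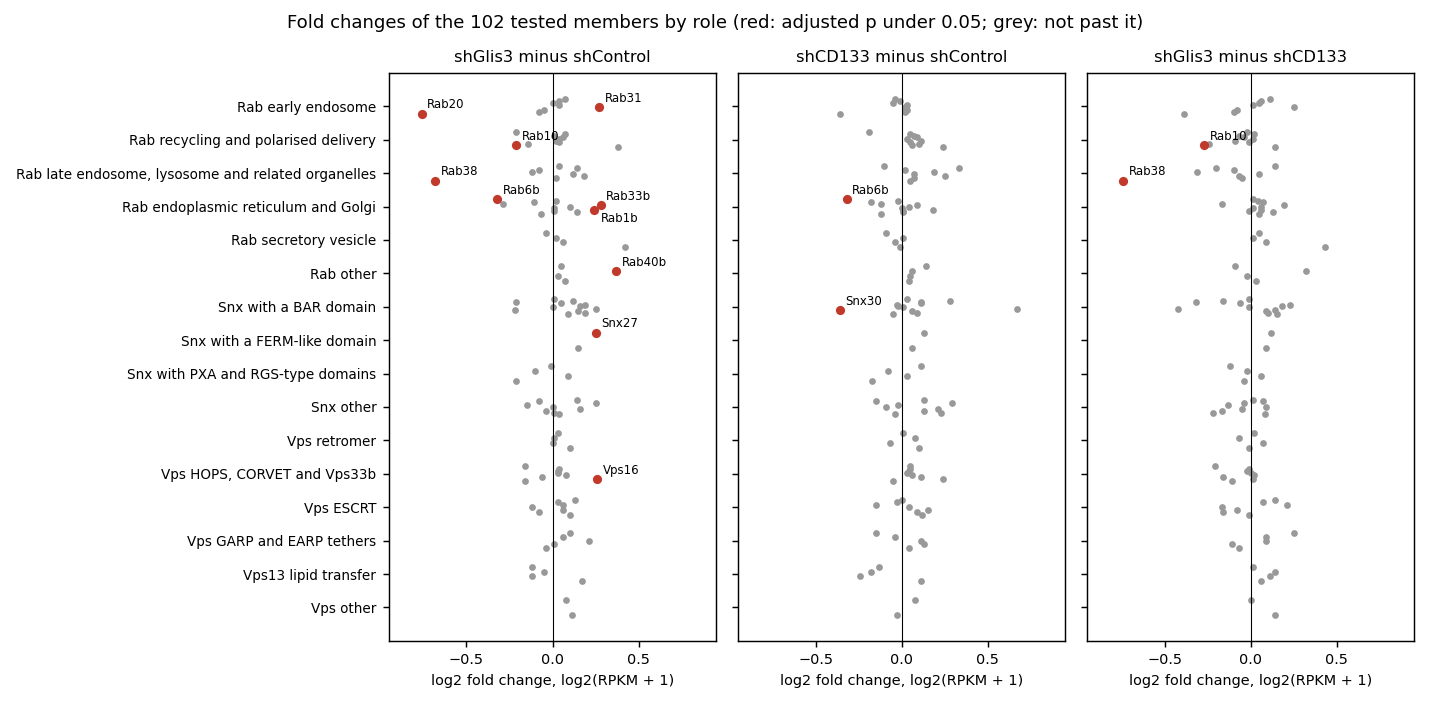
Log2 fold change (log2(RPKM + 1) scale) of the 102 tested members in rows by role, for shGlis3 minus shControl, shCD133 minus shControl and shGlis3 minus shCD133; red dots are members at an adjusted p under 0.05 and grey dots the rest. Most dots lie near 0, and Rab20 and Rab38 stand out at -0.76 and -0.68 in shGlis3.

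Among the early endosome Rabs, Rab20 and Rab31 were called in the Glis3 knockdown. Rab20, linked to phagosome maturation and first described in kidney epithelium, had 3.29 and 3.05 RPKM in shGlis3 colonies, 3.90 and 5.13 in shCD133 colonies and 6.36 and 5.73 in shControl colonies. Both knockdowns lay below control in every library. Its level in shGlis3 was 52.4% of shControl (log2 fold change -0.76, 95% confidence interval -1.03 to -0.48, adjusted p = 0.0127), while in shCD133 it was 74.7% (log2 fold change -0.36, adjusted p = 0.0863). The direct difference between the knockdowns was -0.39 on the log2 scale (adjusted p = 0.111). By merged exon length and depth, the lowest Rab20 library held about 121 reads. Its exons overlap those of E230013L22Rik on the opposite strand, and the sources give no strand setting for the counting. Without shGlis3 replicate 1 or 3 the log2 fold change was -0.80 and -0.71. Without shControl replicate 1 or 3 it was -0.69 and -0.82, and the call was lost, as were most calls over all genes.

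Rab31 (also known as Rab22b, of trans-Golgi to endosome transport) had 11.76 and 11.79 RPKM in shGlis3, 10.16 and 9.27 in shCD133 and 9.14 and 10.01 in shControl. The shGlis3 libraries lay above the other 4, with a log2 fold change of 0.27 from control (SE 0.0684, adjusted p = 0.0467). This call was lost with any 1 library left out, at log2 fold changes of 0.21 to 0.33. Without shCD133 replicate 1 or 3, its adjusted p was 0.0654 and 0.0664. The 6 other early endosome members, among them Rab5a, Rab5b and Rab5c, lay between -0.08 and 0.07 on the log2 scale in shGlis3. In shCD133 none of the 8 passed, and the list had a median of 0.00. Rab4a, of fast recycling, had 4.84 and 4.56 RPKM in shGlis3, 4.18 and 5.19 in shCD133 and 4.62 and 4.50 in shControl, with overlapping groups.

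Because Rab20 had the largest fall, its promoter window is shown, with its E-box in capitals (chr8:11478591-11478890, minus strand, GRCm38.p6, from RefSeq). The E-box is 1 of 12 among the 79 matched members, and no CLEAR element is present. Those of Rab10 (chr12:3309920-3310219, minus strand) and Rab6b (chr9:103111824-103112123, plus strand), which also fell, hold none of the 3 motifs searched and so have no capitals.
Rab20: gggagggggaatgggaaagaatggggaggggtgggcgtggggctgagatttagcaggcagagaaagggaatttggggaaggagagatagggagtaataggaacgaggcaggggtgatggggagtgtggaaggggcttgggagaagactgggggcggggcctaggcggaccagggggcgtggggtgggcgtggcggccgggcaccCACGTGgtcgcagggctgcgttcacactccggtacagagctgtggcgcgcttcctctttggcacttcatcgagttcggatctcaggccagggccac
Rab10: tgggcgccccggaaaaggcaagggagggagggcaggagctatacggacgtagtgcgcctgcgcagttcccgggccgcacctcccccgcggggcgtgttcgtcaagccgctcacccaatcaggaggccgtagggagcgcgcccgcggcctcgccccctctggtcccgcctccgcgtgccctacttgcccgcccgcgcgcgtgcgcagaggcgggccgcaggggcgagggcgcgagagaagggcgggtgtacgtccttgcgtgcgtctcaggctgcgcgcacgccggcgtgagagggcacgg
Rab6b: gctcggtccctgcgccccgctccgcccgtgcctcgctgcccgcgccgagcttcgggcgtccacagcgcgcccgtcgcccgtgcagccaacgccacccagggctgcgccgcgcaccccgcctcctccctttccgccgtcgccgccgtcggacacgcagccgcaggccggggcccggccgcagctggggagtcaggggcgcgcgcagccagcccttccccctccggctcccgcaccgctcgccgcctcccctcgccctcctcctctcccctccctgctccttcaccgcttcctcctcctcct
The windows differ in composition, with 64.3% G and C and 16 CpG in Rab20, 74.7% and 43 CpG in Rab10, and 78.7% and 42 CpG in Rab6b.

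Of the late endosome and lysosome-related Rabs, Rab38 was lower in the Glis3 knockdown than in both other groups. Rab38 and its paralog Rab32 sort cargo to lysosome-related organelles such as melanosomes and lamellar bodies. Rab38 had 4.25 and 3.59 RPKM in shGlis3, 7.78 and 6.61 in shCD133 and 6.30 and 7.52 in shControl. The shGlis3 libraries lay below the other 4, and the shCD133 and shControl libraries overlapped. Its level in shGlis3 was 56.7% of shControl (adjusted p = 0.0154, log2 fold change -0.68 with an interval of -0.95 to -0.41), and it was lower than in shCD133 by 0.74 on the log2 scale (log2 fold change -0.74, adjusted p = 0.024). The difference from shCD133 lost its call with the replicate block (adjusted p = 0.0669) and with only the 2 groups compared (0.0649). It was also lost without shControl replicate 1 or 3 (0.0645 and 0.0651). With 1 library left out its log2 fold change lay between -0.84 and -0.63. The lowest library held about 161 reads. The difference from control lost its call without shControl replicate 1 (-0.80) or 3 (-0.57) and without shGlis3 replicate 3 (-0.59). Most calls over all genes were lost in those fits as well.

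Rab32 had 47.62 and 44.80 RPKM in shGlis3, 61.73 and 53.85 in shCD133 and 45.49 and 55.56 in shControl. Here shGlis3 and shControl overlapped, and no comparison of Rab32 passed (log2 fold change from control -0.12 in shGlis3, interval -0.38 to 0.14, and 0.19 in shCD133). Rab38 thus made up 7.82% of the Rab32 and Rab38 signal in shGlis3, against 11.1% in shCD133 and 12% in shControl. Rab7 had 91.67 and 89.39 RPKM in shGlis3, 96.41 and 98.25 in shCD133 and 93.52 and 98.08 in shControl. Its log2 fold change of -0.08 in shGlis3 (interval -0.21 to 0.05) did not pass. The other members of this list (Rab7b, Rab9, Rab12, Rab24 and Rab29) also did not pass in any comparison.

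In the recycling and polarised delivery list only Rab10 was called. Rab10 had 74.76 and 74.18 RPKM in shGlis3, 90.28 and 89.44 in shCD133 and 86.78 and 85.84 in shControl. The 2 libraries of each group differed by under 1 RPKM, and the shGlis3 libraries lay below the other 4. The fall from control was small, to 86.3% (adjusted p = 0.038, log2 fold change -0.21 with an interval of -0.33 to -0.09), and the difference from shCD133 was -0.27 (adjusted p = 0.0393). Exons of Rab10 overlap those of the antisense gene Rab10os. Both calls were lost when any single library was left out, for the difference from control with log2 fold changes between -0.22 and -0.20. With either shCD133 library left out, the difference from control had an adjusted p of 0.082. Rab11a had 63.49 and 58.62 RPKM in shGlis3, 72.97 and 71.12 in shCD133 and 63.37 and 71.47 in shControl, and it did not pass (log2 fold change -0.24 between the knockdowns, adjusted p = 0.133). The remaining 8 members of the list did not pass in any comparison. Among them, Rab25 had 65.48 and 61.06 RPKM in shGlis3, 67.40 and 62.69 in shCD133 and 58.02 and 63.76 in shControl. Rab15, the lowest member, had 1.14 and 1.38 RPKM in shGlis3, 1.25 and 0.86 in shCD133 and 0.75 and 0.71 in shControl (log2 fold change 0.38 in shGlis3, adjusted p = 0.0818).

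In the endoplasmic reticulum and Golgi list, Rab6b fell in both knockdowns and 2 members rose in shGlis3. Rab6b, a Golgi Rab best known from neurons, had 4.37 and 4.42 RPKM in shGlis3, 4.63 and 4.12 in shCD133 and 5.74 and 5.69 in shControl. All 4 knockdown libraries lay below both controls. The log2 fold change was -0.32 in shGlis3 (interval -0.48 to -0.15, with adjusted p = 0.0333) and -0.32 in shCD133 (interval -0.49 to -0.16, adjusted p = 0.0327), and both rest on the same 2 controls. The calls were lost with the replicate block (adjusted p = 0.076 in shGlis3 and 0.0746 in shCD133) and without either library of the knockdown compared. They were also lost without either shControl library, as were most calls over all genes, with log2 fold changes between -0.33 and -0.31. Its abundant paralog Rab6a had 59.56 and 60.17 RPKM in shGlis3, 58.61 and 57.78 in shCD133 and 57.34 and 60.90 in shControl, with overlapping groups in shGlis3 and shCD133 against control.

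Rab1b, the partner of Rab1a in transport to the Golgi, had 63.07 and 62.60 RPKM in shGlis3, 60.75 and 59.73 in shCD133 and 51.10 and 55.26 in shControl. Every knockdown library lay above both controls. The rise passed in shGlis3 (log2 fold change 0.24, SE 0.0564, adjusted p = 0.0413) and not in shCD133 (0.18, adjusted p = 0.0869), and the knockdowns differed by 0.06 (adjusted p = 0.589). The call was lost with any 1 library left out, at log2 fold changes of 0.18 to 0.29. Without shCD133 replicate 1 or 3, its adjusted p was 0.0796 and 0.0805. Rab1a in turn had 71.86 and 70.53 RPKM in shGlis3, 71.05 and 72.05 in shCD133 and 68.72 and 72.98 in shControl, with both knockdowns inside the control range. Rab33b, a Golgi Rab linked to autophagy, had 8.65 and 8.20 RPKM in shGlis3, 7.25 and 7.28 in shCD133 and 6.39 and 7.14 in shControl (log2 fold change 0.28 in shGlis3, SE 0.0679, adjusted p = 0.0434). The shGlis3 libraries of Rab33b lay above the other 4, and its call was lost with any 1 library left out (log2 fold changes 0.21 to 0.35). Its adjusted p was 0.0772 and 0.0788 without shCD133 replicate 1 or 3. The list's median log2 fold change was 0.01 in shGlis3 and 0.00 in shCD133. The abundant Rab2a, Rab18 and Rab6a did not pass in either knockdown.

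**Figure D3:**
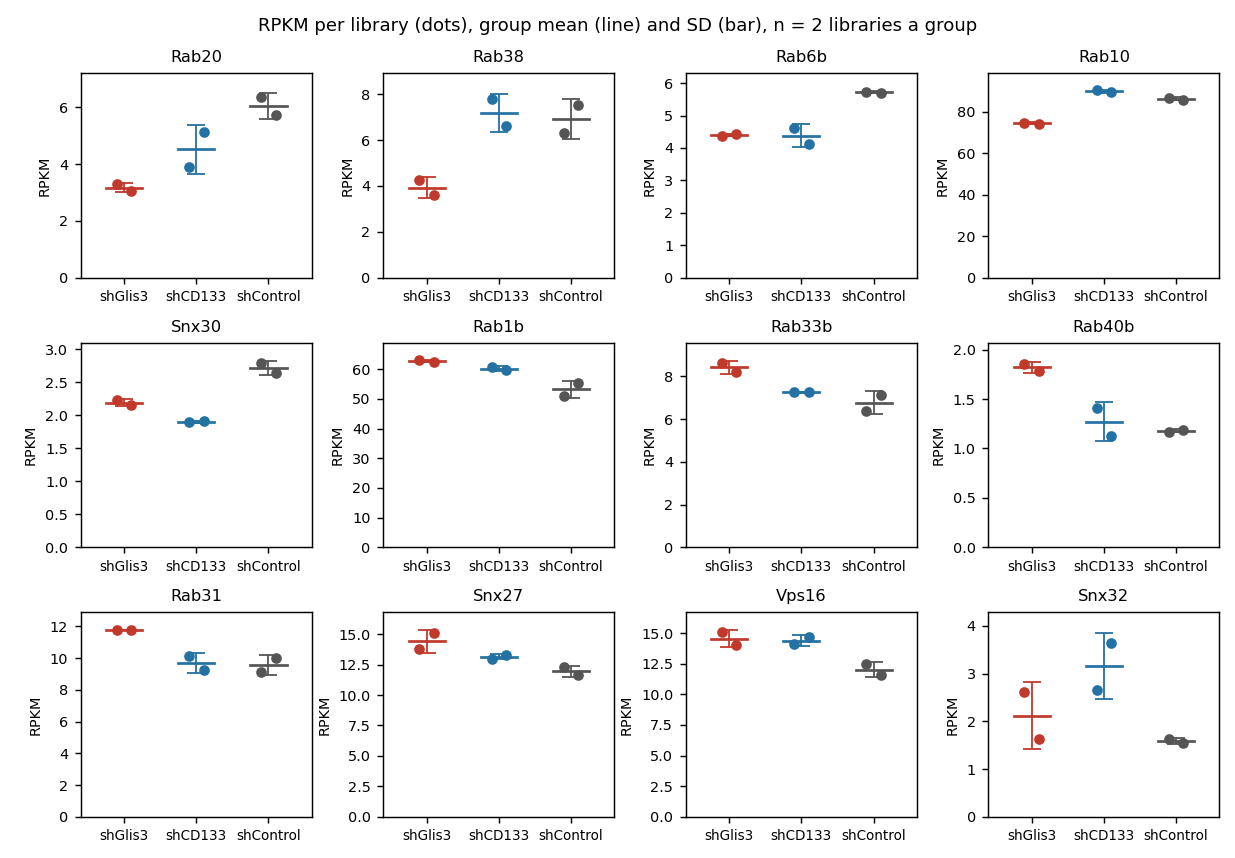
RPKM of 12 members in each library (dots), with the group mean (line) and SD (bar), n = 2 libraries a group, for shGlis3, shCD133 and shControl from left to right. The 11 members called in any comparison are shown with Snx32, which did not pass; Rab38 and Rab10 are low in shGlis3 alone, and Rab6b is low in both knockdowns.

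The secretory vesicle Rabs did not pass in any comparison. Rab27a, which tethers secretory granules and melanosomes, had 1.18 and 1.71 RPKM in shGlis3, 0.78 and 0.83 in shCD133 and 0.79 and 0.85 in shControl. Both shGlis3 libraries lay above the other 4, but the log2 fold change of 0.42 (interval 0.13 to 0.70) had an adjusted p of 0.0672, and the lowest library held about 64 reads. Rab27b stood at 2.73 and 2.40 RPKM in shGlis3, 2.49 and 2.19 in shCD133 and 2.24 and 2.62 in shControl. Rab3d had 16.27 and 15.08 RPKM in shGlis3, 15.51 and 14.72 in shCD133 and 15.16 and 17.23 in shControl, and Rab3a did not pass either. Among the remaining Rabs, Rab40b, whose family carries a SOCS box that recruits ubiquitin ligase, had 1.86 and 1.78 RPKM in shGlis3, 1.41 and 1.13 in shCD133 and 1.17 and 1.19 in shControl. It rose in shGlis3 (log2 fold change 0.37, SE 0.0917, adjusted p = 0.0456) on about 57 reads in the lowest library. This call was lost with any 1 library left out, at log2 fold changes of 0.35 to 0.39. Without shCD133 replicate 1 or 3, its adjusted p was 0.0526 and 0.0508. Rab40c, its more abundant paralog, had a log2 fold change of 0.05. Rab23 and Rab28, both linked to cilia, had log2 fold changes of 0.07 and 0.03 in shGlis3.

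Sorting nexins gave 2 calls in the comparisons with control. Snx27, which pairs with retromer to return cargo with PDZ-binding tails to the plasma membrane, had 13.76 and 15.09 RPKM in shGlis3, 12.99 and 13.29 in shCD133 and 12.28 and 11.65 in shControl. Both knockdowns lay above control, and the rise passed in shGlis3 (log2 fold change 0.25, SE 0.0633, adjusted p = 0.0484) and not in shCD133 (0.13, adjusted p = 0.232). With 1 library left out, the log2 fold change lay between 0.19 and 0.31, and the call was kept only without shGlis3 replicate 1. Without shCD133 replicate 1 or 3, its adjusted p was 0.0861 and 0.0875. Snx30, a BAR-domain nexin that pairs with Snx4, had 2.23 and 2.15 RPKM in shGlis3, 1.89 and 1.91 in shCD133 and 2.79 and 2.64 in shControl. The groups were ordered without overlap. Snx30 fell to 70.0% of control in shCD133 (adjusted p = 0.0283, log2 fold change -0.36 with an interval of -0.53 to -0.19) and had -0.22 in shGlis3 (adjusted p = 0.0915). The call was lost with the replicate block (adjusted p = 0.0733) and without either library of shCD133 or shControl. The log2 fold change then lay between -0.39 and -0.33. Most calls over all genes were also lost without any 1 of these libraries.

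The retromer-linked SNX-BAR nexins did not pass. Snx5 had 45.53 and 46.50 RPKM in shGlis3, 38.61 and 39.64 in shCD133 and 39.06 and 41.18 in shControl, so that both shGlis3 libraries lay above the other 4 (log2 fold change 0.19 from control, adjusted p = 0.0582, and 0.23 from shCD133, adjusted p = 0.067). Snx32, which is close in sequence to Snx5 and Snx6, had 2.62 and 1.62 RPKM in shGlis3, 2.66 and 3.64 in shCD133 and 1.63 and 1.54 in shControl. Its log2 fold change of 0.67 in shCD133 was the largest of any member there and missed the threshold (SE 0.173, adjusted p = 0.0517). It passed with only the 2 groups compared (adjusted p = 0.0199) and without shGlis3 replicate 1 or 3 (0.0201 and 0.0199). With median centring (0.0652) and the replicate block (0.1) it did not pass. Snx7, the other partner of Snx4, had 6.83 and 6.46 RPKM in shGlis3, 8.52 and 8.52 in shCD133 and 7.17 and 8.52 in shControl (log2 fold change -0.32 between the knockdowns, adjusted p = 0.0883). Of the 12 BAR-domain members the median log2 fold change was 0.11 in shGlis3 and 0.04 in shCD133, and of the 9 other PX nexins 0.01 and 0.13. The 4 nexins with PXA and RGS-type domains (Snx13, Snx14, Snx19 and Snx25) lay between -0.21 and 0.09 in shGlis3 and between -0.17 and 0.11 in shCD133, and none passed. Snx3, the most abundant nexin, had 66.04 and 67.05 RPKM in shGlis3, 67.44 and 64.41 in shCD133 and 58.14 and 62.21 in shControl. All 4 knockdown libraries of Snx3 lay above both controls, with log2 fold changes of 0.14 and 0.13 that did not pass (adjusted p = 0.146 and 0.178).

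Among the Vps genes, Vps16 was the 1 member called in any comparison. Vps16, the HOPS and CORVET subunit that holds Vps33a, had 15.07 and 14.06 RPKM in shGlis3, 14.10 and 14.71 in shCD133 and 12.45 and 11.59 in shControl. Every knockdown library lay above both controls, and the rise passed in shGlis3 (log2 fold change 0.26, SE 0.0631, adjusted p = 0.0448) and missed the threshold in shCD133 (0.24, adjusted p = 0.0525). The shGlis3 call was lost with any 1 library left out, at log2 fold changes of 0.21 to 0.31. It was also lost with median centring (adjusted p = 0.0862), quantile normalization (0.0685), the replicate block (0.0935) and only the 2 groups compared (0.0771). In shCD133 the rise passed with only the 2 groups compared (adjusted p = 0.0465), and not with median centring (0.0974) or the replicate block (0.105). The other core and accessory subunits (Vps8, Vps11, Vps18, Vps33a, Vps39 and Vps41) lay between -0.16 and 0.08 in shGlis3 and did not pass, nor did Vps33b, which works outside HOPS. Vps11 stood at -0.16 (interval -0.33 to 0.01, and an adjusted p of 0.185), on the other side of 0 from Vps16. Summed over the list the level was 93.2 RPKM in shGlis3, 95.9 in shCD133 and 91.0 in shControl.

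None of the 4 retromer members passed. Vps35, the scaffold of the complex, had 24.94 and 25.95 RPKM in shGlis3, 25.97 and 24.16 in shCD133 and 23.97 and 25.83 in shControl, with log2 fold changes of 0.03 (interval -0.12 to 0.18) and 0.01. Vps26a, Vps26b and Vps29 lay between 0.00 and 0.10 in shGlis3 and between -0.07 and 0.10 in shCD133. None of the 7 ESCRT members passed, with medians of 0.06 in shGlis3 and 0.04 in shCD133. Vps37d, an ESCRT-I subunit, had 2.40 and 2.28 RPKM in shGlis3, 1.76 and 2.01 in shCD133 and 2.28 and 2.11 in shControl. Of the GARP and EARP tethers, which catch endosome-derived vesicles at the Golgi, Vps54 had 11.48 and 12.15 RPKM in shGlis3, 9.88 and 9.64 in shCD133 and 11.36 and 10.50 in shControl. The knockdowns lay apart (log2 fold change 0.25 between shGlis3 and shCD133, SE 0.0619) without passing (adjusted p = 0.0795). Vps52, shared by both tethers, had 13.67 and 13.15 RPKM in shGlis3, 12.06 and 13.02 in shCD133 and 11.69 and 11.31 in shControl (0.21 in shGlis3, adjusted p = 0.0693). Vps45, a partner of syntaxins at the trans-Golgi, and Vps72, which carries a Vps name but is a chromatin remodelling subunit, did not pass.

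The Vps13 genes differed between libraries of the same group. They encode long bridge proteins that carry lipids between organelles. Vps13b had 5.25 and 8.96 RPKM in shGlis3, 6.92 and 5.73 in shCD133 and 8.42 and 6.85 in shControl. Vps13a had 6.63 and 9.41 RPKM in shGlis3, 7.72 and 7.33 in shCD133 and 7.48 and 6.37 in shControl. The order of libraries within a group was the same for both. Vps13c had 3.03 and 5.19 RPKM in shGlis3, 3.60 and 3.49 in shCD133 and 4.65 and 3.71 in shControl. Vps13d had 3.96 and 6.46 RPKM in shGlis3, 5.27 and 4.82 in shCD133 and 6.29 and 4.99 in shControl. All 4 were thus higher in shGlis3 replicate 3 than in replicate 1, and higher in shControl replicate 1 than in replicate 3. Replicate 1 stood at 0.584 to 0.705 of replicate 3 in shGlis3, at 1.03 to 1.21 in shCD133 and at 1.17 to 1.26 in shControl.

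Transcript length moved with this pattern. The 4 genes have merged exons of 10.8 to 15.8 kb, and no other tested member reached 8 kb. Over all 136 tested genes of 12 kb or more, the median difference of replicate 1 minus replicate 3 was -0.36 on the log2 scale in shGlis3, 0.04 in shCD133 and 0.20 in shControl, while over the 418 genes under 1 kb it was 0.04, -0.02 and -0.12. Across 10655 genes, Spearman's rho between length and that difference was -0.305 in shGlis3, 0.0428 in shCD133 and 0.462 in shControl, as a description, since all genes share the same libraries. The part of RNA quality or library preparation in this was not tested. With the length trend removed from each library, a setting chosen after seeing the data, the SE of Vps13a in shGlis3 against shControl was 0.0834 instead of 0.146, and its log2 fold change stayed at 0.17 (adjusted p = 0.209, against 0.463). No Vps13 gene passed in any comparison in either setting.

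**Figure D4:**
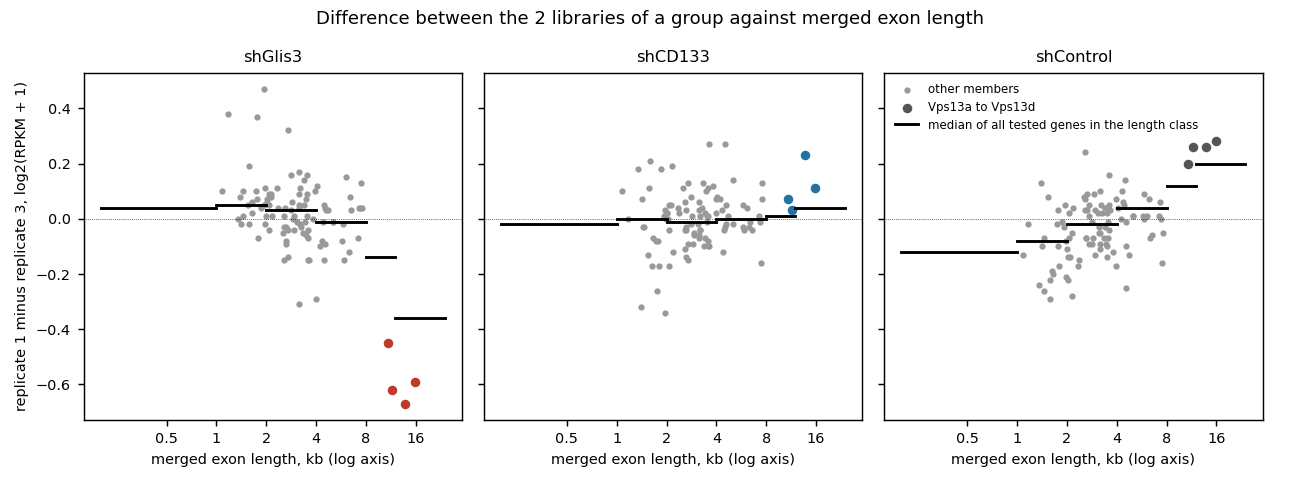
Replicate 1 minus replicate 3 of each group on the log2(RPKM + 1) scale against merged exon length (kb, log axis), for the tested members (grey), Vps13a to Vps13d (coloured) and the median of all tested genes in 6 length classes (black lines; the outermost classes are open-ended). The Vps13 genes lie at -0.67 to -0.45 in shGlis3 and at 0.20 to 0.28 in shControl, on the same side of 0 as other long genes.

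Genes that act with the members were examined from 9 lists of regulators, effectors and partner complexes. Of 251 such genes tested, 11 rose and 4 fell in shGlis3 (5.98% called, against 12.9% of all genes), and 17 rose and 4 fell in shCD133 (8.37%, against 11.8%). Between the knockdowns, 1 was higher and 4 were lower in shGlis3 than in shCD133 (1.99%, against 4.06%). Unlike those of the members, single calls of these genes were not followed through the alternative settings. Both comparisons with control share the same 2 shControl libraries. Rin2, an activator of Rab5, was the companion called in every comparison. It fell by 0.65 in shGlis3 (adjusted p = 0.00387) and by 0.39 in shCD133 (adjusted p = 0.0151) on the log2 scale, and it was lower in shGlis3 than in shCD133 (log2 fold change -0.26, adjusted p = 0.0482). Sec23a, a subunit of the COPII coat that leaves the endoplasmic reticulum, rose by 0.58 in shGlis3 (adjusted p = 0.00624) and by 0.64 in shCD133 (adjusted p = 0.0104). Tbc1d1, a GTPase-activating protein for Rabs of glucose transporter traffic, rose by 0.42 (adjusted p = 0.00815) and 0.39 (adjusted p = 0.0143). Chm, the escort protein that presents Rabs for prenylation, rose by 0.32 (adjusted p = 0.021) and 0.45 (adjusted p = 0.0142), and Commd3, of the complex that works with retriever, by 0.38 (adjusted p = 0.00951) and 0.39 (adjusted p = 0.0143).

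The lists held genes called in only 1 knockdown and genes called in both. A call in only 1 knockdown does not show that the knockdowns differ. Of all genes tested, 8.39% rose and 4.53% fell in shGlis3, and 8.16% rose and 3.64% fell in shCD133. Of 21 ESCRT partners, 1 rose and 3 fell in shGlis3, with Chmp2b, an ESCRT-III subunit, at -0.42 (adjusted p = 0.0112), Mvb12b at -0.35 and Chmp1b at -0.34. Mvb12b and Chmp1b had -0.15 and -0.23 in shCD133. Neither was called between the knockdowns (limma adjusted p = 0.172 and 0.38). In shCD133, 2 rose and 0 fell, and Chmp2b differed between the knockdowns (log2 fold change -0.35, adjusted p = 0.0339). Of 31 Rab effectors, 4 rose in shGlis3 and 6 in shCD133, and 0 fell in either. Sytl1, a Rab27 effector of granule secretion, rose by 0.35 (adjusted p = 0.0204) in shGlis3 and by 0.52 (adjusted p = 0.0125) in shCD133. Myo5c, an exocrine myosin that moves secretory vesicles, had a log2 fold change of 0.44 in shCD133 (adjusted p = 0.0204) and 0.01 in shGlis3, and differed between them (-0.43, adjusted p = 0.0338). Mical1, a Rab effector that oxidises actin, showed the same arrangement with 0.58 (adjusted p = 0.0151), 0.14 and -0.43 (adjusted p = 0.0423). Of 38 SNARE genes 0 were called in shGlis3, and in shCD133 Nsf rose by 0.32 while Use1 and Snap29 fell by 0.33 and 0.28. In shGlis3 Nsf had 0.13 and Use1 -0.17, and neither was called between the knockdowns (limma adjusted p = 0.133 and 0.239). Snap29 was the companion called higher in shGlis3 than in shCD133 (log2 fold change 0.29, adjusted p = 0.0467). Of 26 tether subunits of the exocyst, TRAPP and HOPS, 0 were called in shGlis3 by limma and Exoc6 fell by 0.32 in shCD133. The tether list includes Vps39, which is a member and is left out of the total of companion genes. Exoc6 had -0.21 in shGlis3 (limma adjusted p = 0.0608) and was not called between the knockdowns (adjusted p = 0.329). Of 30 Rab activators, 0 rose and 1 fell in shGlis3, and 1 rose and 1 fell in shCD133. Among 32 Rab inactivators of the TBC family 2 rose in shGlis3 and 3 in shCD133, and among 8 prenylation and recycling factors 1 and 2 rose. Of 18 genes of the WASH, retriever and CCC complexes 1 rose in each knockdown, and of 48 adaptor and coat genes 2 rose in shGlis3 and 1 in shCD133. The inactivators, prenylation factors, WASH-linked genes and adaptors held 0 falls in either knockdown by limma. The lists are short, and their counts were not tested against the shares of all genes.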

How the data were processed

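RNA was extracted from colonies and sequenced as poly(A)-selected, stranded libraries, per the labels' protocols. The authors deposited 1 table of RPKM values for 11164 genes. Reads were handled with bcl2fastq 2.18.0.12, TopHat2 and HTSeq on build mm10, per the submitters' processing notes. For annotation, strand setting and scaling between samples, nothing is stated in the sources used here. Depth was read from steps of low values (genes under 1200 bases and 3 RPKM), with 91 to 103 values per library. The best of many trial depths from 3 to 80 megareads was kept. At that depth 56.8% to 62.6% of values were whole within 0.15 read. The chance share of 30% holds for a fixed depth and would be higher for the best of many. Depths and read numbers are therefore approximate. Reads were not recovered, so no count test was run.

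Genes averaging 1 RPKM or more were analysed on the log2(RPKM + 1) scale. Limma 3.58.1 (R 4.3.3) estimated the 3 group means together, using a variance trend, 3 residual and 3.69 prior degrees of freedom, two-sided tests and Benjamini-Hochberg adjustment over 10829 genes. Fold changes understate those of low genes. The fit was also run on simulated data with independent noise in each gene and library, which lacks the length-linked replicate differences seen here. That run therefore cannot vouch for the adjusted p-values. All 103 members matched GENCODE M21 genes (GRCm38), and exons of 24 overlap those of another gene. The labels' replicate numbers (1 and 3) were not taken as pairs.

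Named members were the 10 largest rises and falls past the threshold per comparison (or the 4 smallest p where fewer than 4 passed), the 8 highest and 4 lowest in control, paralog groups and role lists. Members not covered by this were added with their values known. The members and lists were chosen with earlier results of these data known.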

Additional observations from a re-analysis of the deposited data

How the results depend on the processing

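Counts of called members under the alternatives are given as higher and lower. In shGlis3 against shControl (6 and 4), they were 0 and 6 with median centring, 1 and 5 with quantile normalization, and 2 and 3 without a variance trend. Of all genes 5.32% and 6.57%, 5.92% and 5.73%, and 7.78% and 4.16% were then called higher and lower. The member counts were 0 and 3 with only the 2 groups compared, and 5 and 2 at a minimum mean of 5 RPKM. With the length trend removed (chosen after seeing the data) they were 3 and 6. All-gene shares in these settings, in order, were 5.92% and 3.45%, 7.46% and 4.13%, and 7.57% and 8.15%. In shCD133 against shControl (0 and 2), the member counts were 1 and 2 without a variance trend and 3 and 2 with only the 2 groups compared. At a minimum of 5 RPKM they were 0 and 0. Of all genes 7.94% and 3.58%, 10.7% and 4.67%, and 8.01% and 4.32% were then called higher and lower. In shGlis3 against shCD133 (0 and 2), the member counts were 1 and 2 with quantile normalization and with the length trend removed. They were 0 and 1 without a variance trend, and 0 and 0 with only the 2 groups compared. All-gene shares in these settings, in order, were 1.79% and 2.26%, 2.58% and 3.25%, 1.31% and 1.9%, and 0.24% and 0.295%. At the minimum mean of 5 RPKM, Rab20, Rab6b, Rab40b and Snx30 (means of 4.58, 4.83, 1.42 and 2.27 RPKM) were not tested, so their calls were absent. The cause of the other shifts was not tested. Without shCD133 replicate 1 or 3, shGlis3 against shControl had 0 members higher and 3 lower. Of all genes 5.92% and 3.45%, and 5.9% and 3.35%, were then called. Without shGlis3 replicate 1 or 3, shCD133 against shControl had 3 and 2, beside 10.7% and 4.69%, and 10.7% and 4.63%, of all genes. Without shControl replicate 1 or 3, shGlis3 against shCD133 had 0 and 0, beside 0.24% and 0.304%, and 0.221% and 0.286%. Where the library left out belonged to a compared group, calls are not counted here, since that group then held 1 library. Among those fits, leaving out a shControl library lost every member call and most calls over all genes.

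With the replicate block the counts were 0 and 2 (Rab20 and Rab38), 0 and 0, and 0 and 0; with the block in the 2 groups compared (chosen after seeing the data) they were 0 and 2, 1 and 0, and 0 and 0. Replicate differences correlated across genes at -0.372 between shGlis3 and shControl and -0.428 between shCD133 and shControl, and a crossed replicate block, also chosen after seeing the data, gave 0 and 3, 8 and 3, and 0 and 0; in shCD133 against shControl 17% of all genes were then higher and 7.62% lower, so the 8 members were below the share of all genes. With the replicate block 3.79% and 1.83% of all genes were called in shGlis3 against shControl, and 2.13% and 0.96% in shCD133 against shControl. Between the knockdowns the shares were 0.259% and 0.471%. With the block in the 2 groups compared, the shares were 4.77% and 2.72%, 4.97% and 2.42%, and 0% and 0%. The crossed block gave 6.7% and 4.26% in shGlis3 against shControl, and 0.221% and 0.276% between the knockdowns. The correlation between shGlis3 and shCD133 was 0.0322. No fold change of a called member reversed. With a pseudocount of 0.1 or 5, or no filter on low values, counts stayed within 1.5 times. The lowest libraries of Rab40b and Rab27a held about 57 and 64 reads, and counting error was not separated from the spread between libraries.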
